A study of Mus musculus with 16 samples.

Results

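Broad H3K4me3 domains free of Suz12 are long stretches of chromatin marked by H3K4me3, most of them over gene starts, that carry no called peak of the Polycomb protein Suz12. They were taken from the H3K4me3 and Suz12 peaks of mouse embryonic stem cells (ESCs) kept in LIF (LIF-ESCs) or on activated Myc (Myc-ESCs). Merging the overlapping H3K4me3 peaks of the cultures gave 36255 regions. A region was kept if it held a LIF-ESC peak of 5000 bp or more and a Myc-ESC peak of any length, with no Suz12 peak of either culture within 1000 bp. This left 2323 regions, here called members. There were 2725 regions with a LIF-ESC peak of 5000 bp or more. Of these, 135 had no Myc-ESC peak and 267 had a peak in both cultures and Suz12 nearby. Of those without a Myc-ESC peak, 4 that were also free of Suz12 held a curated gene start.

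Chromatin was immunoprecipitated for H3K4me3, H3K27me3 and Suz12 and sequenced. The LIF-ESCs were grown with 100 units per ml LIF, and the Myc-ESCs without LIF and with 50 nM 4-hydroxytamoxifen (OHT). The labels name the line R1, and per the study's methods the cells of both cultures carry MycER, a stabilised Myc mutant fused to the oestrogen receptor that OHT activates, in clonal lines. Both cultures therefore share the transgene, and OHT and the absence of LIF change together, so their parts cannot be told apart. All cells grew without feeders on gelatin in serum medium with vitamin C. Each culture and antibody had 2 libraries, and 4 inputs made 16 in all, but the data used here are 6 peak lists, 1 for each culture and antibody. No list per library was used, so no test between cultures was possible and every difference is given as a description. The depth of each library is unknown from the lists, and a longer peak cannot be told apart from a more deeply sequenced one. In the same way, a change in a share of the cells cannot be told apart from a change in all of them.

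H3K4me3 is placed at gene starts by the Set1 and Mll complexes, and most starts that lie in CpG-rich DNA carry it on the nucleosomes around them. Some genes carry it over many kilobases into the gene body. Such broad domains are known to lie at genes that define a cell's identity and at highly transcribed genes. Suz12 is a core subunit of Polycomb repressive complex 2, which places H3K27me3. LIF signals through the receptor chains Lifr and Il6st and the Jak kinases to Stat3, and Stat3 keeps genes of the naive pluripotent state active.

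The LIF-ESC list of H3K4me3 held 32469 peaks over 92.9 Mb, of which 2732 reached 5000 bp, and the Myc-ESC list 30345 peaks over 90.8 Mb, of which 2187 did. The lists' score is capped, and 1666 members in LIF-ESCs and 1440 in Myc-ESCs sat at its usual upper value of 3100, so H3K4me3 scores were not compared between cultures and are given for single members where they were low. All 8 ESC marker genes had H3K4me3 within 2500 bp of a start in both cultures, and 6 of them started in a member: Pou5f1, Sox2, Nanog, Zfp42, Dppa5a and Utf1. Klf4, with a LIF-ESC peak of 10182 bp and a Myc-ESC peak of 5415 bp at its start, was left out because of Suz12 peaks there in Myc-ESCs. Esrrb was left out because its LIF-ESC peak measured 3959 bp and Suz12 lay there in both cultures. Of 14 markers of other cell types, 13 had H3K4me3 in each culture, 0 started in a member, and Suz12 lay at 11 in LIF-ESCs and 12 in Myc-ESCs. The rule removes regions with Suz12 nearby, so this 0 was largely set by the choice. Over all genes with curated transcripts, 10.3% started in a member, a share that also counts genes without H3K4me3.

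The sequences below give examples of gene starts and of bases that only LIF-ESC peaks covered. The promoters are RefSeq windows of GRCm38.p6 that run from 250 bases before to 50 bases after a gene start, and capitals mark CpG. The intragenic stretches are 150 bases of GRCm38 from the middle of the longest run that was under a LIF-ESC peak and not under a Myc-ESC peak, and none overlaps a curated exon. Stat3, Tfcp2l1 and Kdm5b were shown because their domains ended much nearer the start in Myc-ESCs, Slc38a2 because its domain was the most lengthened one with a gene start, and Nanog as a CpG-poor exception.
Stat3 promoter, chr11:100939491-100939790, minus strand: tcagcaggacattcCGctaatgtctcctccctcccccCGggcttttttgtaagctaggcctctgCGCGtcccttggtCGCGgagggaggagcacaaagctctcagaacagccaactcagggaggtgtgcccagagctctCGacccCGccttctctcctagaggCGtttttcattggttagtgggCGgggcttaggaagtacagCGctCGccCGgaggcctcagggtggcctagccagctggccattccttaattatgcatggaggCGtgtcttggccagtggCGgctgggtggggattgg
Tfcp2l1 promoter, chr1:118627695-118627994, plus strand: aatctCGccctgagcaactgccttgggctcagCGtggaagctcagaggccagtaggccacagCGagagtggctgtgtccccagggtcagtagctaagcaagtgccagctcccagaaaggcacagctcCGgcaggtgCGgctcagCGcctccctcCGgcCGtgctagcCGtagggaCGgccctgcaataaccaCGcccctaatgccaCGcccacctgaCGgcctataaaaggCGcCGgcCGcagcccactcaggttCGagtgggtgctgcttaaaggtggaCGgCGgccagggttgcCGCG
Tfcp2l1 intragenic stretch, chr1:118631075-118631224, plus strand: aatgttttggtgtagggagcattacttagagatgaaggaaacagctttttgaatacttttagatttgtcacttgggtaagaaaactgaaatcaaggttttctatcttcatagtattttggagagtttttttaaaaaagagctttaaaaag
Kdm5b promoter, chr1:134559928-134560227, plus strand: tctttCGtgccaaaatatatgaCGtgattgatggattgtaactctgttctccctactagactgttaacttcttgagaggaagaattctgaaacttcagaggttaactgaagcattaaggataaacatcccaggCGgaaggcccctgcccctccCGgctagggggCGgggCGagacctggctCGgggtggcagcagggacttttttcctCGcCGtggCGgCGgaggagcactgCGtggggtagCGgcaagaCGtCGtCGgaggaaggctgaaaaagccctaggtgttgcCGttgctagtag
Kdm5b intragenic stretch, chr1:134581438-134581587, plus strand: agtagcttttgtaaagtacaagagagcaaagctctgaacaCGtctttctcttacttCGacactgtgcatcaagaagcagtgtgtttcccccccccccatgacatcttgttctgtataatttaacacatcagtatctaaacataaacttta
Slc38a2 promoter, chr15:96699679-96699978, minus strand: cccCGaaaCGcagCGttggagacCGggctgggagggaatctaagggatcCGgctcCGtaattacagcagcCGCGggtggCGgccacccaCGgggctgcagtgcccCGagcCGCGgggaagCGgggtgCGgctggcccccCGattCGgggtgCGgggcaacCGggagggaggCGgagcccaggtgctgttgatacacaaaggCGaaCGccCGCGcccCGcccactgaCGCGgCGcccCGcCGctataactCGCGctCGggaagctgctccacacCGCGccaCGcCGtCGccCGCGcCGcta
Nanog promoter, chr6:122707239-122707538, plus strand: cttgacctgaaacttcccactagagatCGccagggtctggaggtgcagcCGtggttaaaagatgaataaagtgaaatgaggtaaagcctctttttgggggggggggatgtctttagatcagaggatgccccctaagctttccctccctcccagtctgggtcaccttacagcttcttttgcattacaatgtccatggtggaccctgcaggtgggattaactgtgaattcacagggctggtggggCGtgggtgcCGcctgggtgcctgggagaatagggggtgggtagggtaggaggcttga
The Stat3 promoter holds 15 CpG. The Tfcp2l1 promoter holds 21 and its stretch, which begins 3130 bp into the gene, holds 0. The Kdm5b promoter holds 17 and its stretch, 21260 bp into the gene, holds 2. The stretch found in the same way at Lifr, not printed, holds 5 CpG and its promoter 53, so these stretches differ in CpG content. The Slc38a2 promoter holds 41 CpG and the Nanog promoter 4.

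The members were shorter in Myc-ESCs. Their H3K4me3 length, the bases of the region under peaks of a culture, had a median of 6637 bp in LIF-ESCs (quartiles 5647 and 8596) and of 5580 bp in Myc-ESCs (quartiles 4698 and 6876). They summed to 18.1 Mb in LIF-ESCs and 14.1 Mb in Myc-ESCs. The median log2 ratio of Myc-ESC to LIF-ESC length was -0.22 (quartiles -0.56 and -0.04). Of the 2323 members, 1903 (81.9%) were shorter and 420 longer in Myc-ESCs. A fold of 1.5 or more was reached by 560 shorter members (24.1%, 95% Wilson interval 22.4 to 25.9%) and by 5 longer ones (0.215%, interval 0.0920 to 0.503%). Over all 21102 regions shared by both cultures and free of Suz12, 4.11% were shorter and 7.86% longer by this fold. Intervals cover counting error only and treat regions as independent.

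The members were chosen by their LIF-ESC length, which is bounded below, whereas their Myc-ESC length is not, so nothing is read from these counts against the background. With the choice mirrored to a Myc-ESC peak of 5000 bp or more, 1766 regions were kept. Their median log2 ratio was -0.06, 61.3% of them were shorter in Myc-ESCs, 183 (10.4%) were shorter by 1.5-fold and 49 (2.77%) longer. With the geometric mean of both lengths at 5000 bp or more, 2093 regions were kept. For these the median log2 ratio was -0.15, and 377 (18.0%) were shorter and 14 (0.669%) longer by 1.5-fold. This choice weighs both lengths alike but is not neutral, since LIF-ESC lengths spread more widely. Over shared regions free of Suz12 their quartiles were 1804 and 3707 bp, against 2169 and 3708 bp in Myc-ESCs. A high mean can therefore favour regions that are long in LIF-ESCs. Under each of the 3 choices the median lay below 0 and more regions were shortened than lengthened. The limit itself fell between similar regions. Just inside, the start of Ccnf, the gene of a cyclin F-box protein, had 5001 bp in LIF-ESCs and 4851 in Myc-ESCs, Zfp580 had 5002 and 4759, and a region of chromosome 11 without a gene start had 5006 and 1893. Just outside lay Tmcc1 with 4997 and 5466 bp, Ptpn12 with 4996 and 5234, and Xrcc5, which acts in repair of double-strand breaks, with 4994 and 3456.

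**Figure D1:**
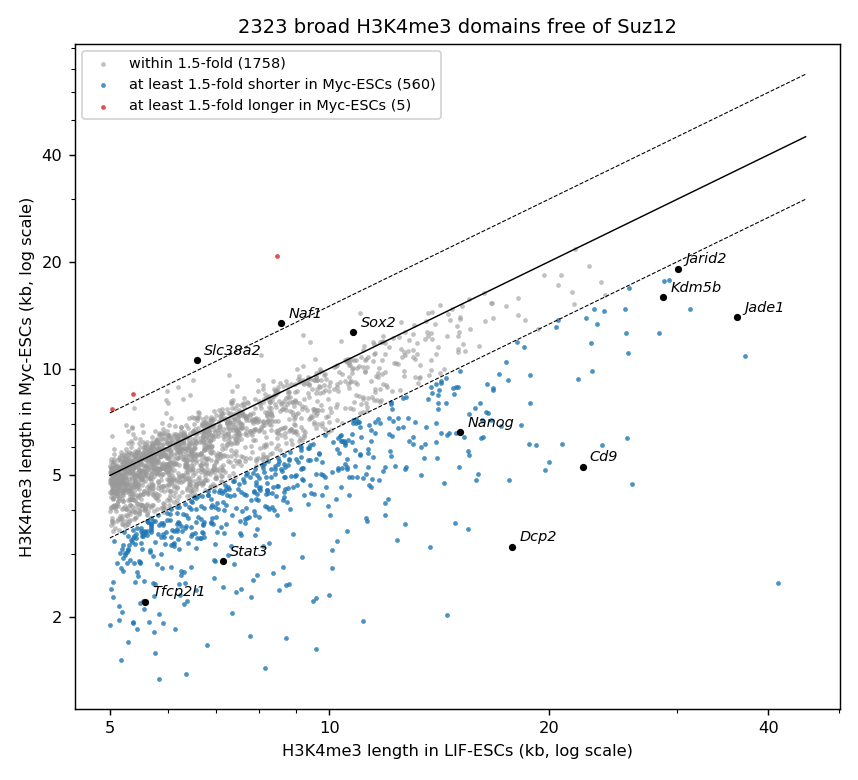
H3K4me3 length of each member in LIF-ESCs (x axis, kb, log scale) against Myc-ESCs (y axis, kb, log scale); each point is a region, the solid line marks equal length and the dashed lines a fold of 1.5. The 560 blue points lie at least 1.5-fold below the line and the 5 red ones at least 1.5-fold above it, black points are genes named in the text, and no point can lie left of 5 kb because the LIF-ESC length chose the members.

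The ratio was lower for longer domains. Among shared regions free of Suz12, grouped by the geometric mean of both lengths, the median log2 ratio was 0.34 below 2000 bp, 0.17 from 2000 to 3000 bp and 0.05 from 3000 to 4000 bp. It was -0.01 from 4000 to 5000 bp, -0.09 from 5000 to 6000 bp, -0.14 from 6000 to 8000 bp and -0.27 from 8000 to 12000 bp. The 96 regions of 12000 bp or more had a median of -0.32, and 34 of them (35.4%) were shorter by 1.5-fold. By these medians, short H3K4me3 regions were longer in Myc-ESCs and broad ones shorter. A wider spread of LIF-ESC lengths also gives a fall with the geometric mean, and the 2 cannot be told apart here. Shared regions with Suz12 nearby had higher medians in each group, 0.08 from 5000 to 6000 bp (144 regions), 0.07 from 6000 to 8000 bp (125) and -0.02 from 8000 to 12000 bp (49). Broad regions chosen by the same LIF-ESC limit but with Suz12 nearby (267) went from a median of 6296 to 6041 bp, a median log2 ratio of -0.05, and 42 of them (15.7%, interval 11.9 to 20.6%) were shorter by 1.5-fold. Both groups were chosen by values that enter or border on this ratio, so the shares are given side by side with no test. Whether depth or background of the lists moves with the size of a region was not tested.

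**Figure D2:**
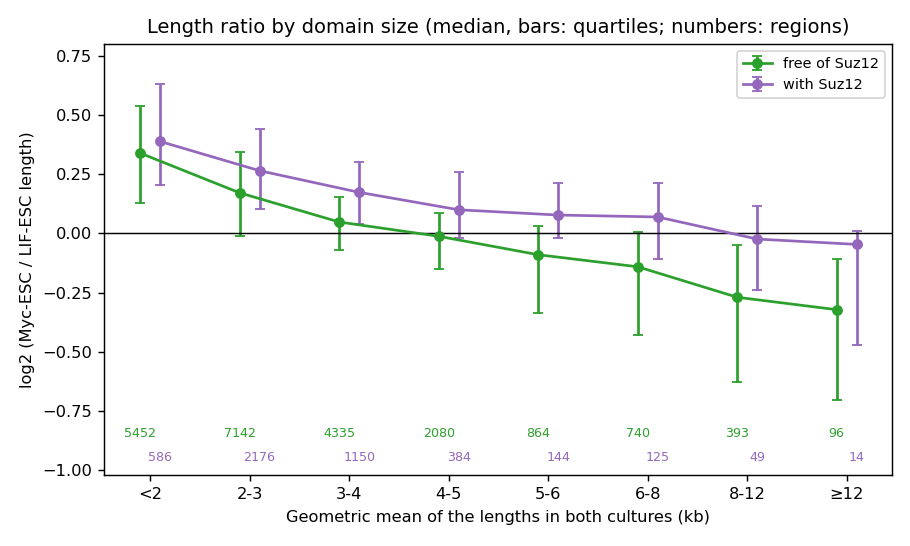
Median log2 ratio of Myc-ESC to LIF-ESC H3K4me3 length (y axis) by the geometric mean of both lengths (x axis, kb) for shared regions free of Suz12 (green) and with Suz12 (purple); bars span the quartiles and the numbers at the foot are regions. The green medians fall from 0.34 to -0.32 and cross 0 between 3 and 5 kb, and the purple medians lie above them in every group.

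Within the members, 828 with a LIF-ESC length under 6000 bp had a median of 5428 bp in LIF-ESCs against 4971 bp in Myc-ESCs, and 12.6% were shorter by 1.5-fold. Of the 169 members from 12000 to 20000 bp, 93 (55.0%) were. The 35 members of 20000 bp or more had medians of 23659 and 13968 bp, and 27 of them (77.1%, interval 61.0 to 87.9%) were shorter by 1.5-fold. These groups were cut by the same LIF-ESC lengths that enter the ratio. Most members were 1 peak in each culture (2082). In 175 members 1 LIF-ESC peak stood against 2 to 4 Myc-ESC peaks, and in 50 the reverse held, 2 or 3 LIF-ESC peaks against 1.

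The shortening lay mostly on the side of the gene body. A member held the curated starts of exactly 1 gene in 1312 cases, and there the extent of the domain was measured from the upstream-most start. Upstream of it, the median extent was 1777 bp in LIF-ESCs against 1754 bp in Myc-ESCs. Downstream, into the gene, it was 4797 bp in LIF-ESCs against 3574 bp in Myc-ESCs. The domain ran further downstream than upstream in 1187 of these members (90.5%). The downstream end lay over 500 bp nearer the start in Myc-ESCs at 819 members (62.4%, interval 59.8 to 65.0%), and the upstream end at 134 (10.2%, interval 8.69 to 12.0%). Over all 8188 1-gene regions shared and free of Suz12, these shares were 14.4% downstream and 2.81% upstream. An end over 500 bp further from the start in Myc-ESCs was found downstream at 36 members and upstream at 35. In 724 members the downstream end drew back while the upstream end stayed within 500 bp, in 82 both drew back and in 52 the upstream end alone.

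The retreat of the ends summed to 2176 kb downstream and 285 kb upstream. Of the total, 84.3% lay inside the gene, 4.10% past its far end and 11.6% upstream. Downstream extents are longer and so have more room to shrink, and the ends were therefore also compared within bands of LIF-ESC extent. From 2000 to 3000 bp, 39 of 292 upstream ends (13.4%) and 12 of 103 downstream ends (11.7%) drew back by over 500 bp. From 3000 to 5000 bp the numbers were 46 of 140 (32.9%) upstream and 320 of 580 (55.2%) downstream, and from 5000 bp on 24 of 51 (47.1%) and 485 of 600 (80.8%). The downstream share was thus the higher one from 3000 bp on, while from 2000 to 3000 bp the shares were close. The last band has no upper limit, so extents are not matched within it. All bands were cut by the LIF-ESC extent that enters the retreat. With the mirrored choice, the downstream end drew back at 419 of 977 regions (42.9%) and the upstream end at 63 (6.45%). In broad regions with Suz12 the numbers were 69 of 183 (37.7%, interval 31.0 to 44.9%) downstream and 19 (10.4%) upstream.

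**Figure D3:**
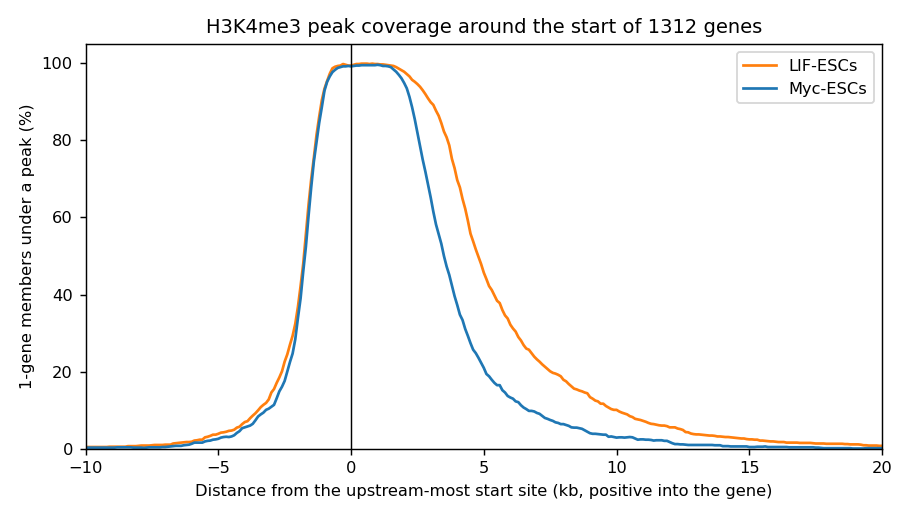
Share of the 1312 members with the starts of 1 gene that lie under an H3K4me3 peak (y axis, %) by distance from the upstream-most start (x axis, kb, positive into the gene), in LIF-ESCs (orange) and Myc-ESCs (blue). The curves part a little upstream of the start, with 22.6% in LIF-ESCs against 17.6% in Myc-ESCs at 2500 bp upstream. They part more widely downstream of about 2 kb, where the Myc-ESC curve falls first, with 69.7% against 37.3% at 4000 bp.

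Whether a member held 1 start or several went with how much it shortened. Members with the starts of 2 genes (552), of which 363 were divergent pairs, went from a median of 6449 to 5670 bp, and 67 (12.1%) were shorter by 1.5-fold. The 86 members with 3 or more genes went from 8277 to 7263 bp, and 6 (6.98%) were. Those with 1 gene went from 6668 to 5544 bp, and 338 (25.8%) were. The 373 members with no curated start went from 6329 to 4931 bp, and 149 (39.9%) were. Of these, 224 lay inside or over a curated gene, 86 held a predicted transcript start and 107 had neither.

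The part that only LIF-ESCs held was poor in CpG. Bases under peaks of both cultures summed to 13.7 Mb with 2.74 CpG per 100 bp, bases under LIF-ESC peaks alone to 4.35 Mb with 1.05, and bases under Myc-ESC peaks alone to 0.384 Mb with 1.11. Over these summed bases, observed CpG relative to that expected from base content was 0.467 where both cultures had peaks and 0.214 under LIF-ESC peaks alone. In 1566 members that held at least 500 bp of both, the part held by LIF-ESCs alone had fewer CpG per 100 bp in 1483 (94.7%), with medians of 1.000 against 2.66. Since the shared part holds the start in most members, CpG content and distance from the start cannot be told apart here. Whole members had a median of 2.33 CpG per 100 bp, close to the 2.37 of the 18779 other shared regions free of Suz12, and the broad regions with Suz12 had 3.72. Members shorter by 1.5-fold had 1.82 (quartiles 1.47 and 2.24) and those within 1.5-fold 2.50 (quartiles 1.96 and 3.12). The median number of CpG per region was close, at 167 and 176, so the groups differed in density more than in number.

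Promoters of the genes of shortened members held as many CpG at the median as the others. Each gene gave 1 window, which at a gene with several starts may lie at another start than that of the member. Of the 2700 genes that start in a member, 2093 had a promoter window, and its median was 24.0 CpG, against 20.0 for genes of other shared regions and 7.00 for all 27025 promoters. Genes of members shorter by 1.5-fold and within 1.5-fold both had a median of 24.0. The motif CACGTG, the E-box that Myc and Max bind and that reads the same on both strands, was in 238 member promoters (11.4%, interval 10.1 to 12.8%). It was in 7.24% of all promoters and 10.1% of those of genes in other shared regions (interval 9.55 to 10.7%). Among genes of shortened members it was in 43 of 372 (11.6%, interval 8.70 to 15.2%) and among genes of those within 1.5-fold in 195 of 1718 (11.4%, interval 9.94 to 12.9%).

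Members at the 37 LIF pathway genes listed for this description were shorter in Myc-ESCs. Of these genes, all with H3K4me3 in both cultures, 7 (18.9%) started in a member. Over all genes, 2700 of the 15390 with a start in a region shared by both cultures did. These are 10.3% of all 26180 genes with curated transcripts, a share that also counts genes without H3K4me3. No excess is read from the 7 genes. All 7 members were shorter in Myc-ESCs, beside 81.9% of all members. By 1.5-fold or more 5 of the 7 were, beside 21.1% of members with a gene start. The median log2 ratio was -0.79 against -0.21 over all members with a gene start. At each of the 7, the downstream end drew back by over 500 bp, beside 62.4% of all 1-gene members. Wider JAK-STAT lists that the study used gave other values. In the KEGG list, 14 of 155 genes (9.03%) started in a member, with a median of -0.47 and 5 of 14 shorter by 1.5-fold. In the GO list 4 of 88 (4.55%) did, with a median of -0.14 and 1 of 4 shorter by 1.5-fold, so the low ratio depends on the genes listed. Stat3, the transcription factor at the end of the pathway, had 7150 bp in LIF-ESCs against 2870 bp in Myc-ESCs on chromosome 11 from 100933800 to 100940949. Its domain reached 5740 bp into the gene in LIF-ESCs against 1652 bp in Myc-ESCs. Its upstream extent was 1409 against 1217 bp. Lifr, the LIF receptor chain, had 8676 and 4952 bp, and its downstream extent went from 6323 to 2665 bp. Il6st, which encodes the shared receptor chain gp130, had 6333 and 5372 bp. Pim3, a kinase gene that Stat3 activates, had 8220 and 4748 bp. The signalling adaptor gene Grb2 had 6879 and 4655 bp. Bcl3, a co-regulator of NF-kappaB, had 5063 and 3278 bp, and Pias2, of a family of Stat inhibitors, had 12619 and 6851 bp. Socs3 and Klf4, also genes downstream of Stat3, are not members, since Suz12 lay there in Myc-ESCs.

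Pluripotency factor genes were often members. Over all genes, 2700 of the 15390 with a start in a shared region started in a member, 10.3% of all genes with curated transcripts. Of the 43 pluripotency genes listed, 42 had a start in a shared region. Of 43 listed genes, 24 (55.8%) started in 25 members, whose median log2 ratio was -0.19, with 20 shorter, 5 longer and 7 shorter by 1.5-fold. Beside these, 81.9% of all members were shorter, and 21.1% of members with a gene start were shorter by 1.5-fold. Tfcp2l1, a naive factor gene under Stat3, fell from 5593 to 2203 bp, and Klf2 from 6042 to 3891 bp. At Nanog, a core factor gene on chromosome 6 from 122701411 to 122716531, 15121 bp in 1 LIF-ESC peak stood against 6616 bp in 2 Myc-ESC peaks, and the downstream extent was 9042 against 2672 bp. Jarid2, which encodes a partner of Polycomb repressive complex 2, had 30042 and 19117 bp, the latter in 4 peaks. Sall4, a zinc-finger factor gene in 1 region with Gm14261, had 16743 and 8833 bp. Trim71, a let-7 target gene of early development, had 23865 and 16131 bp, just within 1.5-fold. With Stat3 above, the seventh was 1 of the 2 members at Fbxo15, in 1 region with Timm21, which had 7022 and 4189 bp. The other Fbxo15 member had 5847 and 5211 bp.

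The other members of the list stayed within 1.5-fold. Pou5f1, which encodes Oct4, had 9800 bp in LIF-ESCs against 8565 bp in Myc-ESCs, and Sox2 had 10790 and 12641 bp. Zfp42, the Rex1 gene, had 20560 and 17198 bp, Utf1 10784 and 10053, and Dppa5a 7200 and 6582. Rif1 had 11417 and 9240 bp, and Zfp143 5875 and 4840. Of the secreted factors, Nodal had 9323 and 9096 bp, Tdgf1, which encodes the Nodal co-receptor Cripto, 9775 and 7646, Fgf4 7267 and 6540, Gdf3 5038 and 4747, and Lefty2 5640 and 6068. Zfp281 had 7362 and 8640 bp, Mycn 8096 and 8975, and Lin28a, which blocks let-7 processing, 5990 and 6185. The 5 longer members of the list were thus Sox2, Zfp281, Mycn, Lefty2 and Lin28a, each within 1.5-fold.

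**Figure D4:**
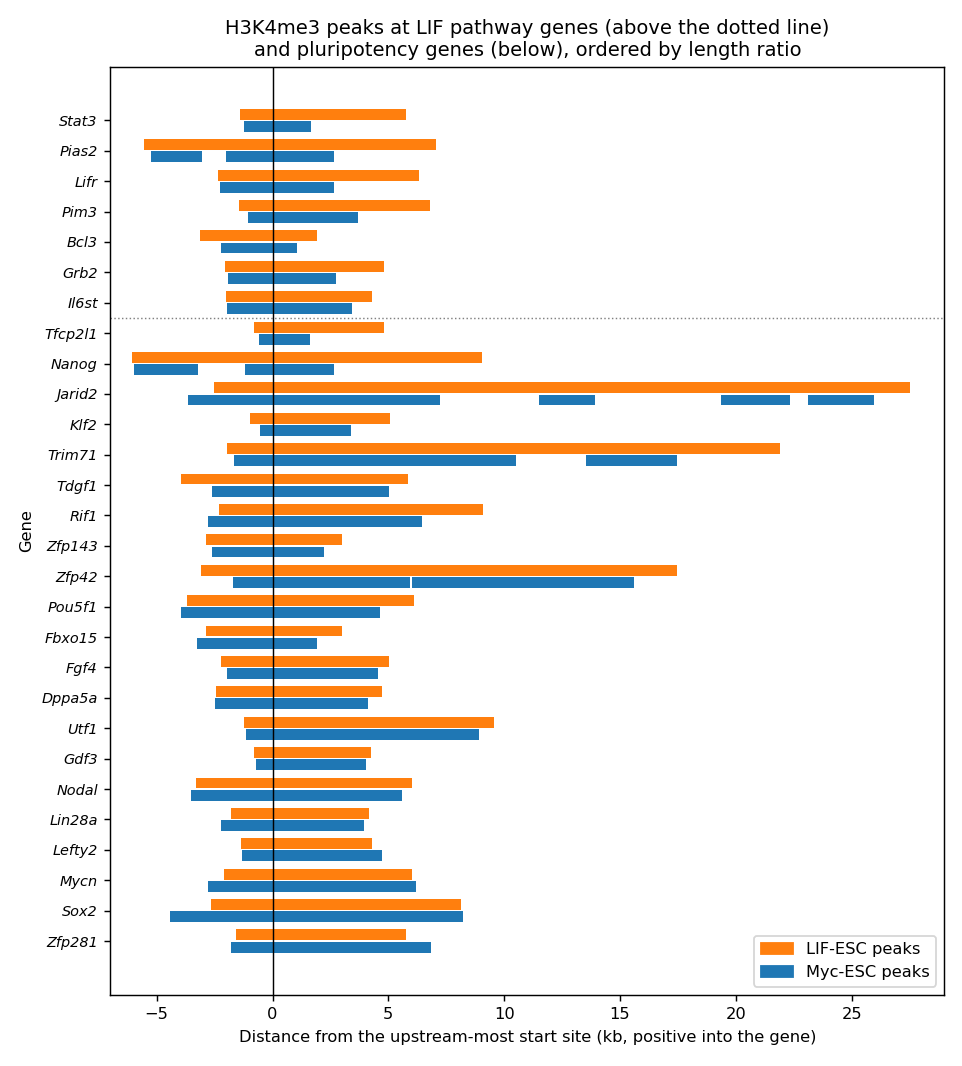
H3K4me3 peaks in LIF-ESCs (orange) and Myc-ESCs (blue) at members with the starts of 1 gene of the LIF pathway list (above the dotted line) and, for the genes reported here, of the pluripotency list (below), drawn to scale by distance from the upstream-most start (x axis, kb, positive into the gene), with genes ordered by length ratio. The orange bars reach further right than the blue ones at each of the 7 LIF pathway genes, while at Sox2, Zfp281, Mycn and Lefty2 the blue bars reach at least as far.

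Of the 10 members longest in LIF-ESCs, all 10 were shorter by 1.5-fold in Myc-ESCs, beside 24.1% of all members. They were picked by the LIF-ESC length that enters the ratio, so nothing is read from this count. Jade1, a subunit of Hbo1 acetyltransferase complexes, had 36260 and 13968 bp, and its downstream extent went from 34771 to 12438 bp. Zfp532 had 31225 and 14761 bp, and Mkrn1, in 1 region with Gm10244, had 29191 and 17791 bp. The co-repressor gene Ncor1, in 1 region with Pigl, had 28774 and 17675 bp. Kdm5b, an H3K4 demethylase, had 28678 and 15878 bp, and its downstream extent went from 27760 to 14908 bp while the upstream extent was 917 and 969 bp. Kat6b, a histone acetyltransferase, had 28346 and 12585 bp, most of it upstream of the start used. The remaining 3, besides Jarid2, held no curated start. The longest of all, 41283 bp in LIF-ESCs against 2492 bp in Myc-ESCs, lay inside Jarid2 on chromosome 13 from 44766789 to 44808071, with low scores of 104 and 67.6. A region of 37178 and 10823 bp lay inside Esrrb and held a predicted start of that gene. The last, of 25976 and 4743 bp, lay on chromosome Y over Erdr1, with a LIF-ESC score of 97.0.

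The most shortened members with a gene start lost most of their length downstream of the start. Dcp2, an mRNA decapping enzyme, went from 17807 to 3150 bp, with the downstream extent going from 15903 to 2109 bp. Cd9, a tetraspanin gene, went from 22242 to 5295 bp, Bcat1, which transaminates branched-chain amino acids, from 14846 to 3662 bp, and N4bp1 from 25598 to 6361 bp. Rbpj, the DNA-binding factor of Notch signalling, had 2 members at separate starts, and they went from 23659 to 6087 bp and from 17631 to 4855 bp. Zfp292 went from 19728 to 5189 bp, Rad23b, a gene of nucleotide excision repair, from 19999 to 5452 bp, and Cs, the citrate synthase gene, from 12682 to 3641 bp. At the inner of 2 members of Rtn4, 15505 bp in LIF-ESCs became 3537 bp in Myc-ESCs, which lay wholly upstream of the start. The other Rtn4 member had 8877 and 8049 bp.

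Few members were much longer in Myc-ESCs. Slc38a2, an amino acid transporter gene, went from 6575 to 10572 bp and gained 2269 bp upstream and 1728 bp downstream. The imprinted Snrpn and Snurf start went from 5381 to 8463 bp. Naf1, which helps to assemble box H/ACA ribonucleoproteins, went from 8592 to 13407 bp, of which 4757 bp were gained downstream. The non-coding RNA gene Lncenc1 went from 5031 to 7678 bp at 1 of its 2 members. These are 4 of the 5 members longer by 1.5-fold, and the remaining one, on chromosome 8 from 20118844 to 20139600, went from 8467 to 20757 bp and held no gene start. Below that fold, G2e3 had 5987 and 8642 bp, Six4 5387 and 7723, Hells, a chromatin remodeller of DNA methylation, 6492 and 9301, and Dedd 6205 and 8862. Zfp978 had 5977 and 8172 bp, and the region of Mir130a and Ypel4 had 9198 and 12451 bp.

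Lists of chromatin regulators are read beside the 10.3% of all genes that start in a member and the 21.1% of members with a gene start that were shorter by 1.5-fold. The 10.3% also counts genes without H3K4me3. Of the 15390 genes with a start in a shared region, 2700 started in a member. Of H3K4 methylation genes, 16 of 26 (61.5%) started in a member, with a median log2 ratio of -0.12. Beside Kdm5b, the members at the complex subunit genes Rbbp5 (16003 to 5056 bp) and Wdr82 (10379 to 4630 bp) were shorter by 1.5-fold. The members at Rbbp5 and at Wdr82 each held another gene as well, so their lengths cannot be assigned to 1 gene. The methyltransferase genes Setd1b (14716 and 14749 bp) and Kmt2d (6863 and 6842 bp) kept their length. Of Polycomb genes, 13 of 32 (40.6%) started in a member, with a median of -0.34. Eed (14921 to 6592 bp) and Rnf2 (7531 to 3713 bp) were among the 4 that were shorter by 1.5-fold. Suz12 itself had 6991 and 5508 bp and Ezh2 6296 and 4968. Of DNA methylation and silencing genes, 13 of 26 (50.0%) were members, with a median of -0.20. Tet1 (18089 to 11885 bp), Tet2 (16374 to 7570 bp) and Zfp57 (11923 to 4185 bp), which guards imprints, were shorter, and Dnmt3a (9412 and 11916 bp) was longer within 1.5-fold. Of chromatin remodeller genes, 20 of 41 (48.8%) started in a member, with a median of -0.14, and 3 were shorter by 1.5-fold. Among those 3 were Kat6b, given above, and the cohesin gene Rad21 (13501 to 5594 bp). The genes named in this and the following paragraphs were chosen after their values were seen.

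Most ribosomal protein genes started in a member. The lists of this paragraph too stand beside 10.3% of all genes, or 2700 of the 15390 with a start in a shared region. Where several genes of a list share a member, they are not independent. Of 87 cytosolic ribosomal protein genes, 73 (83.9%, interval 74.8 to 90.2%) started in 72 members, whose median went from 7371 to 6595 bp (log2 ratio -0.12). Of the 72, 57 were shorter and 15 longer in Myc-ESCs, beside 81.9% of all members shorter, and 1 was shorter by 1.5-fold. Where a ribosomal member held 1 gene, the downstream end drew back by over 500 bp at 22 of 27, with the median downstream extent going from 5160 to 4307 bp, beside 62.4% of all 1-gene members. Of snoRNA genes and their hosts, 81 of 140 (57.9%) started in 48 members, with a median of -0.11 and 1 shorter by 1.5-fold; many of these genes lie within ribosomal protein genes. Replication-dependent histone genes, which lie in clusters, had 39 of 65 (60.0%) in 14 members, with a median of -0.08 and 0 shorter by 1.5-fold. Of the Myc network and growth genes, 24 of 41 (58.5%) started in 22 members, with a median of -0.18 and 4 shorter by 1.5-fold. Npm1, the nucleolar phosphoprotein gene, had 14101 and 11495 bp, Ncl, the nucleolin gene, 13098 and 9479, and Odc1, the first enzyme of polyamine synthesis, 5619 and 5819. The translation initiation factor gene Eif4e (11318 to 6924 bp) and Nolc1 (8454 to 4363 bp) were shorter. Of cell cycle genes, 12 of 37 (32.4%) were members, all 12 shorter in Myc-ESCs, beside 81.9% of all members. Their median was -0.28, with 1 beyond 1.5-fold, E2f2 (11398 to 6257 bp).

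Signalling genes are also read beside the 10.3% of all genes and the 2700 of 15390 genes with a start in a shared region. Of immediate-early and feedback genes, 11 of 38 (28.9%) started in a member, with a median of -0.14. Spry4, a feedback inhibitor of receptor tyrosine kinases, went from 22918 to 9824 bp, and Zfp36, which promotes mRNA decay, had 12525 and 13537 bp. Of Wnt receptor and nuclear effector genes, 7 of 50 (14.0%) did, with a median of -0.18. Ctnnb1, the beta-catenin gene, went from 9210 to 5249 bp, and the co-repressor gene Tle4 had 7291 and 9590 bp. Of Zfp genes, 68 of 403 (16.9%) were members, with a median of -0.20, and of long non-coding RNA genes 222 of 3318 (6.69%), with a median of -0.21. A start in a shared region was held by 386 of the Zfp genes and by 1201 of the long non-coding RNA genes.

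**Figure D5:**
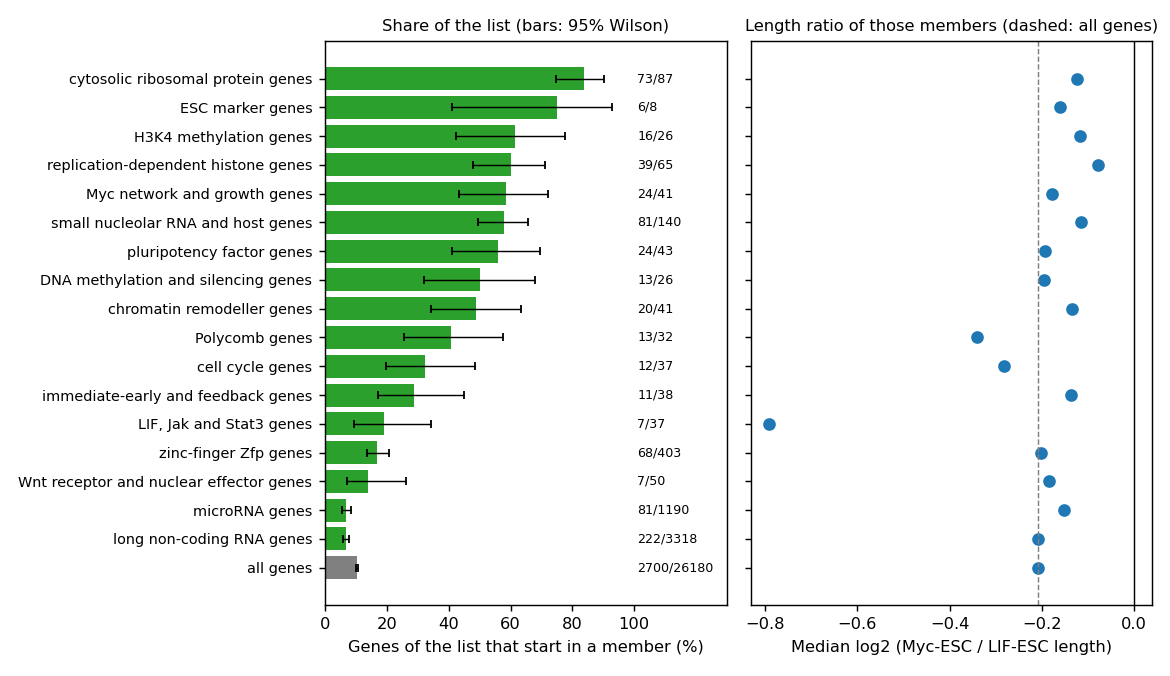
Left, share of each gene list that starts in a member (x axis, %; bars, 95% Wilson interval; genes in members of genes matched beside each bar); right, median log2 ratio of Myc-ESC to LIF-ESC length of those members (x axis), with the value over all members that hold a gene start dashed. Ribosomal protein genes have the largest share (73 of 87) and the LIF pathway genes the lowest ratio of the lists drawn (-0.79, 7 members).

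Of 1190 microRNA genes, 240 had a start in a region shared by both cultures, and 81 (6.81% of the 1190) started in 59 members. They are shown by mature sequence from RefSeq (GRCm38.p6), with the seed, bases 2 to 8, in capitals, to show 2 well-known seed families whose loci lie in members.
miR-291a-3p: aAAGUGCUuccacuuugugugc
miR-294-3p: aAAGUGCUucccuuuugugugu
miR-295-3p: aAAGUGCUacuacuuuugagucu
let-7a-5p: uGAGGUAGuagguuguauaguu
let-7f-5p: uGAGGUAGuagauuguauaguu
let-7g-5p: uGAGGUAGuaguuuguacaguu
The first group of 3 shares the seed AAGUGCU, which 5 mature sequences of the table hold, and comes from the Mir290a to Mir295 cluster, the main microRNA cluster of ESCs, on chromosome 7. That member had 6593 bp in LIF-ESCs against 7147 bp in Myc-ESCs. The second group shares the let-7 seed GAGGUAG, held by 11 mature sequences, and is known to accumulate on differentiation. The member over Mirlet7a-1 and Mirlet7f-1 on chromosome 13 had 10286 and 5254 bp. Mirlet7g lies with Wdr82 in a member of 10379 and 4630 bp on chromosome 9, so that length cannot be assigned to either. Mirlet7i lay in a member of 5022 and 5215 bp, and Mirlet7e, with Mir125a, in one of 5934 and 6564 bp. Of the 4 members with let-7 genes, 2 were thus shorter and 2 longer in Myc-ESCs, and lengths did not separate the seed families.

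H3K27me3 was rare. The choice of members excluded Suz12, a subunit of the complex that places H3K27me3, so low shares of this mark were partly set by the choice. H3K27me3 peaks themselves were not used in it. A peak within 1000 bp was found at 8 members in LIF-ESCs (0.344%, interval 0.175 to 0.678%) and at 14 in Myc-ESCs (0.603%, interval 0.359 to 1.01%), and at 2 in both. Over all shared regions free of Suz12 the shares were 0.588% and 1.58%. The Myc-ESC list of H3K27me3 held 16717 peaks and the LIF-ESC list 3120, and with lists cut to equal length the order turned round, with 9 members in LIF-ESCs and 3 in Myc-ESCs. Among broad regions with Suz12, 55 of 267 (20.6%) had it in LIF-ESCs and 139 (52.1%) in Myc-ESCs. The scores at the members were low. In Myc-ESCs the highest were 170 at Zfp580, 152 at the shared region of Ddx25 and Pus3, 147 at Akt1, a kinase gene of growth signalling, 102 at Kat6a and 87.3 at Rnd2 and Vat1, and a score of 50 is the lowest in the lists. In LIF-ESCs they were 97.0 at Uck2, 83.0 at a region of chromosome 4 without a gene start, 58.1 at Cxxc5, 56.1 at the region of Fhod1 and Slc9a5, and 56.1 at Mycn. Tfcp2l1 had a Myc-ESC peak with a score of 53.8. The nearest Suz12 peak lay at a median of 173546 bp in LIF-ESCs against 137513 bp in Myc-ESCs, and 19 and 29 members had one within 5000 bp. The rule removed regions with Suz12 within 1000 bp and no distance for other regions is given, so nothing is read from these distances.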

How the data were processed

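ChIP-sequencing was done for H3K4me3, H3K27me3 and Suz12. The authors aligned reads to GRCm38 (mm10) and called peaks with MACS against background, and the submitters' processing notes name Bowtie2 2.2.3 and MACS 1.4.2. The deposited lists hold the start, the end and a score of each peak, and the score, in that program a measure of the p-value on a log scale, was used to filter peaks, to name H3K27me3 peaks and to describe single members. Any pooling of the libraries behind a list is not given in the sources used here, and read depth is unknown.

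Regions, lengths and distances were computed with Python 3.11.15, pandas 2.3.3 and numpy 2.4.6, and the interval code was tested on simulated data. Peaks sharing at least 1 base were merged. Gene starts were curated RefSeq transcripts of GRCm38.p6 (26180 symbols). Shares carry 95% Wilson intervals (scipy 1.17.1), which cover counting error only. No test between cultures was made, since there is 1 list per culture and antibody. The members and the gene lists were chosen with earlier results of these data known.

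Genes were named by rule: the 10 longest members, the 10 with the lowest and the 10 with the highest length ratio among those with a gene start, the pluripotency and LIF pathway genes in members, the 5 highest H3K27me3 scores in each culture, and 3 regions on either side of the length limit. Genes of other lists were named after their values were seen. Alternatives covered the peaks used, the Suz12 distance, the length limit, the culture that sets it, merging, the length measure, scaling, the fold and the annotation. Gene expression and Myc binding were not analysed here. Some items that these rules name are not reported here.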

Additional observations from a re-analysis of the deposited data

How the results depend on the processing

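With 1 list per culture and antibody, no replicate could be left out and no depth adjusted for. No paired analysis was possible because the lists are not given per library. The median log2 length ratio was below 0 under all 14 alternatives and moved beyond its interval (-0.241 to -0.206) under 8. It was -0.116 and -0.412 with limits of 4000 and 7000 bp, -0.056 with the Myc-ESC limit, -0.167 with the merged region at 5000 bp, -0.147 with the geometric mean, -0.262 with merging over 1000 bp, -0.253 for the longest peak and -0.33 after division by the median ratio of shared Suz12-free regions. In the same order, the share shorter by 1.5-fold was 16.2, 38.0, 10.4, 20.9, 18.0, 27.6, 28.7 and 29.9%. It was 21.1% over members with a gene start, 41.2% at a length ratio of 5 to 4 and 8.70% at a fold of 2. The share longer by 1.5-fold was 2.77% with the Myc-ESC limit, 1.88% with the merged region, 0.669% with the geometric mean, 0.990% for the longest peak, 0.0430% after division, 1.08% at a ratio of 5 to 4 and 0.0430% at a fold of 2. Members numbered 4180 and 960 with limits of 4000 and 7000 bp. H3K27me3 in Myc-ESCs was found at 0.212% with a score of at least 100 (0 members in LIF-ESCs) and at 0.128% (3 members) with lists of equal length, against 0.385% (9) in LIF-ESCs, so the order of the cultures reversed. The downstream end drew back at 42.9% of 1-gene regions with the Myc-ESC limit, 55.2% with the geometric mean, 72.5% at 250 bp and 47.9% at 1000 bp, and the upstream end at 6.45, 8.43, 21.1 and 5.72%. The geometric mean, the restriction to a gene start or score and all alternatives for the ends were chosen after seeing the data. Of 81 alternative values, 42 stayed within the interval or 1.5-fold limit of the reported one.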
